A study of Mus musculus with 38 samples.

Results

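The genes *Cd34*, *Lgr5*, *Lgr6*, *Lrig1*, *Postn*, *Fgf18*, *Npnt* and *Angptl7*, which mark stem cells of the hair follicle, were followed through the histone marks of epidermal stem cells (EpdSCs) in which SOX9 was switched on. They are 8 of 21938 protein-coding genes annotated by GENCODE on mm10 (GRCm38) and were chosen by name. Each was measured over its gene body with 20 kb on either side, a stretch called its window below. The study profiled H3K4me1, found at enhancers whether poised or in use, H3K27ac, found at enhancers and promoters in use, and total H3 by MINT-ChIP, which tags each sample's chromatin with a barcode so that samples can share 1 immunoprecipitation. Of its 38 samples, 12 were skin H3K4me1, 12 skin H3K27ac, 12 skin total H3 and 2 cultured-cell H3K4me1 libraries. The values here come from the 14 interval lists that the authors called on merged replicates.

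All skin samples were sorted K14rtTA; TRE-myc-Sox9 EpdSCs, from the back skin of male mice or, at W12, from grafts. In these cells the *Krt14* promoter drives the activator, and doxycycline (DOX) turns on MYC-tagged SOX9 in skin epithelium. D0 cells carried both transgenes and had no induction. W1, W2, W6 and W12 cells had 1, 2, 6 and 12 weeks of DOX. It was begun by injection, at postnatal day 21 in the intact mice, and kept up in the chow. For W12, newborn back skin had been grafted onto immunocompromised female *Nude* hosts and was induced once healed. These hosts were older than the intact mice when DOX began. Thus 12 weeks of DOX, grafting and the sex, strain and age of the host cannot be told apart. One W2 replicate shared its libraries with W12 and was separated from it by barcode. Sorted cells were CD34-negative, CD49f-high and Ly6A-high and lacked CD31, CD45, CD117 and CD140a, so that the gate set CD34 protein aside at every time. Cultured EpdSCs came from newborn male K14rtTA pups with TRE-myc-Sox9 variants and were not sorted. They were kept without DOX or induced to make wild-type SOX9 (WT), SOX9 without its DNA-binding HMG domain (noHMG) or SOX9 without its transactivation domain (noTA).

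Hair follicle stem cells rest in the bulge, below the sebaceous gland, and rebuild the follicle at each hair cycle. EpdSCs of the basal layer renew the surface epidermis and normally do not make SOX9, which the follicle needs to set aside its stem cells. CD34 is a surface sialomucin that marks the mouse bulge and also endothelium. LGR5 and LGR6 are receptors for R-spondins, which strengthen WNT signals, and mark the lower and the upper follicle. LRIG1 restrains EGF receptor signalling and marks the junctional zone. The other members are secreted: periostin (*Postn*) and nephronectin (*Npnt*) into the matrix, FGF18 as a growth factor that holds follicles at rest, and ANGPTL7 as an angiopoietin-like protein.

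Each mark and time had 1 list of pooled replicates, so that no value below has a replicate error and no difference could be tested. In such pooled cells, a mark in more cells and more of a mark per cell cannot be told apart. A window was called higher or lower where the bases covered differed by at least 1.5-fold from D0 (in culture, from the list without DOX), and a window covered in 1 list only was also called. All later lists were compared with the same D0 list, and all culture variants with the same list without DOX. The share of all windows called, among those with an interval in at least 1 of both lists, is given beside each first count as its background.

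Lists differed in size. H3K4me1 domains numbered 69439 to 87287 and covered 264 Mb to 310 Mb, most at D0. H3K27ac peaks numbered 29081 to 33985 and covered 23.1 Mb at W12 and 27.3 Mb to 32.1 Mb at the other times. The number of reads is not given in the lists, but H3K27ac folds returned a background pileup (the fragments stacked over an average base) of 0.299 at W1, 0.412 at W12, 0.425 at W2, 0.501 at D0 and 0.677 at W6. The smallest pileup of a peak at that background was 3 at W1, 5 at W6 and 4 in the other lists, so that peaks with a fold near 3 rested on a handful of fragments. Genes listed for epidermal stem cells were read in the same way. All 6 genes *Krt5*, *Krt14*, *Itga6*, *Itgb4*, *Trp63* and *Col17a1* carried H3K27ac in every list (10.8% to 16.2% of their summed windows). Single genes moved: H3K27ac was higher in *Krt5* and *Trp63* at W2 (background 25.8%) and in *Krt5* at W6 (31.1%). It was lower in *Itga6* and *Col17a1* at W1 (22.4%) and W6 (14.5%), and in *Col17a1* at W12 (42.7%). H3K4me1 covered 53.5% to 60.4% and was called in none of these genes. The paper counts *Krt5* among genes that EpdSCs and follicle stem cells share. Whether cells kept an epidermal rather than a follicle identity was therefore not tested by these genes.

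The members *Cd34*, *Lgr5*, *Lgr6* and *Postn* had no H3K27ac peak anywhere in their windows at D0 and had at least 1 later. The share of all windows with this pattern is not given here, so that how common it is cannot be told. The genomic sequence (RefSeq, GRCm38.p6) at the strongest of these later peaks is shown for each of the 4, because these peaks carry the acetylation that D0 lacked. Each run is 300 bases around the summit, on the gene's own strand, and peaks within 1 kb of the start of any other gene were passed over. Capitals mark matches, on either strand, to the SOX motifs ACAAAG and, searched separately, ACAATG, to the RUNX motif TGTGGT and to the GATA motif AGATAA. No matches overlapped in these runs. The *Cd34* run is chr1:194962378-194962677 (plus strand), 23.7 kb from the 5′ end and just past the 3′ end of the gene, under a W12 peak of fold 7.08. The *Lgr5* run is chr10:115572759-115573058 (minus strand), in an intron 14.9 kb from the 5′ end, under a W12 peak of fold 10.6. The *Lgr6* run is chr1:135020083-135020382 (minus strand), in an intron 85.0 kb from the 5′ end, under a W2 peak of fold 10.5. The *Postn* run is chr3:54370783-54371082 (plus strand), at an exon and its introns 9.82 kb from the 5′ end, under a W12 peak of fold 6.38.
*Cd34*: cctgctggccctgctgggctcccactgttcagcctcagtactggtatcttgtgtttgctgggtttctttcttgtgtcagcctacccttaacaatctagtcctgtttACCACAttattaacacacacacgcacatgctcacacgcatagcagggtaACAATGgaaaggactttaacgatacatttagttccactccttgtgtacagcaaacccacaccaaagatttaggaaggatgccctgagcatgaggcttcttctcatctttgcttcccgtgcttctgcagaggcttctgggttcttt
*Lgr5*: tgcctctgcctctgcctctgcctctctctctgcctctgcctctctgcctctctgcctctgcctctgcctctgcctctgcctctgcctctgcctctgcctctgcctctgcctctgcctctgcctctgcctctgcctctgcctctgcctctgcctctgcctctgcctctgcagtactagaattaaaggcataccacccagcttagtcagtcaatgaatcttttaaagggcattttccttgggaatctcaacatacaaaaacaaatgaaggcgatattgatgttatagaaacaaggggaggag
*Lgr6*: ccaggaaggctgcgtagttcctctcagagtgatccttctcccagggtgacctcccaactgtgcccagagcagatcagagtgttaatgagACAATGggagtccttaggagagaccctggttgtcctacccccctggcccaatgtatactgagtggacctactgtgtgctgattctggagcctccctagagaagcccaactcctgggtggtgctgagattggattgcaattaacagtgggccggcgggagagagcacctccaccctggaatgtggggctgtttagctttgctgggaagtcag
*Postn*: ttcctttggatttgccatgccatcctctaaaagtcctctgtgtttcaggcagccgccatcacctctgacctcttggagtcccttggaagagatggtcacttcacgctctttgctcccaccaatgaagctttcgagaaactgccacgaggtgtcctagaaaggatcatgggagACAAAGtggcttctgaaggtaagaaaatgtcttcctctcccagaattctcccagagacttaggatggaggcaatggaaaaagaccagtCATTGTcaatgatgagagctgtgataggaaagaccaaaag
The *Cd34* run held 1 SOX match (ACAATG) and 1 RUNX match, the *Lgr6* run 1 SOX match (ACAATG), and the *Postn* run 1 match to each SOX motif. Of all W2 peaks 31.2% held either SOX motif in the same length around the summit, and of all W12 peaks 32.7%. The *Lgr5* run held none of the 4 motifs. Of its bases, 72.0% are masked as repeats in the reference. That peak was called at W12 only and lay in no H3K4me1 domain of any skin list. The *Cd34* and *Lgr6* peaks lay in H3K4me1 domains of all 5 skin lists. The *Postn* peak lay in domains of the later lists, but only partly overlapped the D0 domain. That domain ended at 54370800, before the summit of the peak. The motif matches describe these letters and were not tested as binding sites.

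*Cd34* (chromosome 1, 194938819 to 194961279, plus strand) had the largest relative gain of H3K4me1 among the members at W2. Domains covered 4.8 kb of its window at D0 and W1, then 25.8 kb (W2), 11.8 kb (W6) and 14.2 kb (W12). W2 stood at 5.38 times D0, W6 at 2.46 times and W12 at 2.96 times, whereas W1 equalled D0. Of the 17328 windows covered in both lists, 0.548% had a W2 ratio at least as high. At D0 and W1 both *Cd34* domains lay past the gene, 24.0 kb and 38.6 kb from its 5′ end. The latter spans the starts of the noncoding genes A330023F24Rik and Gm16897. At W2 a domain of 10200 bp covered the *Cd34* start site, and domains of 4800 bp at W6 and 8600 bp at W12 covered it too, while none came within 1 kb of it at D0 or W1. Of the 21 kb that were new at W2, 33.3% were also covered at W6 and 44.8% at W12. Across all windows these shares were 36.2% and 33.3%. Without domains at starts of other genes of any type, a setting chosen after seeing the data, the log2 ratio to D0 was 3.71 at W2 in place of 2.43, 2.39 at W6 in place of 1.30, and 2.78 at W12 in place of 1.56.

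H3K27ac in the *Cd34* window was likewise first called at W2. D0 and W1 had no peak, whereas W2 had 3 (highest fold 8.42), W6 had 1 (5.96) and W12 had 2 (7.08). The W2 and W12 lists each placed a peak in the 5′ part of the gene body (2.37 kb and 3.80 kb from the 5′ end, folds 4.73 and 3.11), inside the domain that was new at W2, and another near 24 kb. The peak near 38 kb, called at W2 and W6, sits at the starts of A330023F24Rik and Gm16897 and was the only W6 peak, so that with it left out *Cd34* had no H3K27ac at W6. No *Cd34* peak lay within 1 kb of its own start site. Of the 7 genes of the sort, H3K27ac was higher in 1, 1, 2 and 4 at W1, W2, W6 and W12. It was lower in 2, 1, 2 and 1. Of all windows, 22.0%, 25.8%, 31.1% and 21.2% were higher and 22.4%, 19.4%, 14.5% and 42.7% lower. At W12 *Cd34*, *Ptprc*, *Kit* and *Pdgfra* were higher and *Ly6a* lower. *Ly6a* had H3K27ac over 13.1% of its window at D0 and 8.95%, 4.98%, 5.50% and 3.08% at the later times. It was called lower at W2, W6 and W12. Its H3K4me1 covered 13.9% at W2 against 30.6% to 42.9% in the other lists.

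*Lgr5* (chromosome 10, 115450311 to 115587780, minus strand) also had its widest H3K4me1 coverage at W2. H3K4me1 covered 18.8 kb at D0, then 13.2 kb (W1), 61.0 kb (W2), 22.2 kb (W6) and 31.2 kb (W12). W2 stood at 3.24 times D0, and 1.45% of windows had a ratio at least as high. W12 stood at 1.66 times D0, W6 at 1.18 times and W1 at 0.702 times, of which W12 was called. Unlike *Cd34*, *Lgr5* had a domain over its start site in all 5 lists. This domain was 3000 bp at D0 and 11200 bp at W2, and a single W2 domain of 14600 bp overlay separate D0 domains of 2400 bp and 1200 bp further into the gene. Of the 43.0 kb new at W2, 2.33% had been covered at W1, 11.6% were covered at W6 and 25.1% at W12. The protein-coding gene A930009A15Rik, on the opposite strand, starts 17794 bp inside the *Lgr5* body, and signal there cannot be given to one of both genes.

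*Lgr5* H3K27ac was sparse: no peak at D0, W1 or W6, 1 at W2 (59.0 kb from the 5′ end, fold 4.91, pileup 6) and 2 at W12 (14.9 kb and 93.2 kb, folds 10.6 and 4.16). The W2 peak fell in a domain present in all lists, and neither the W2 nor the W12 peaks came within 1 kb of the *Lgr5* start.

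**Figure D1:**
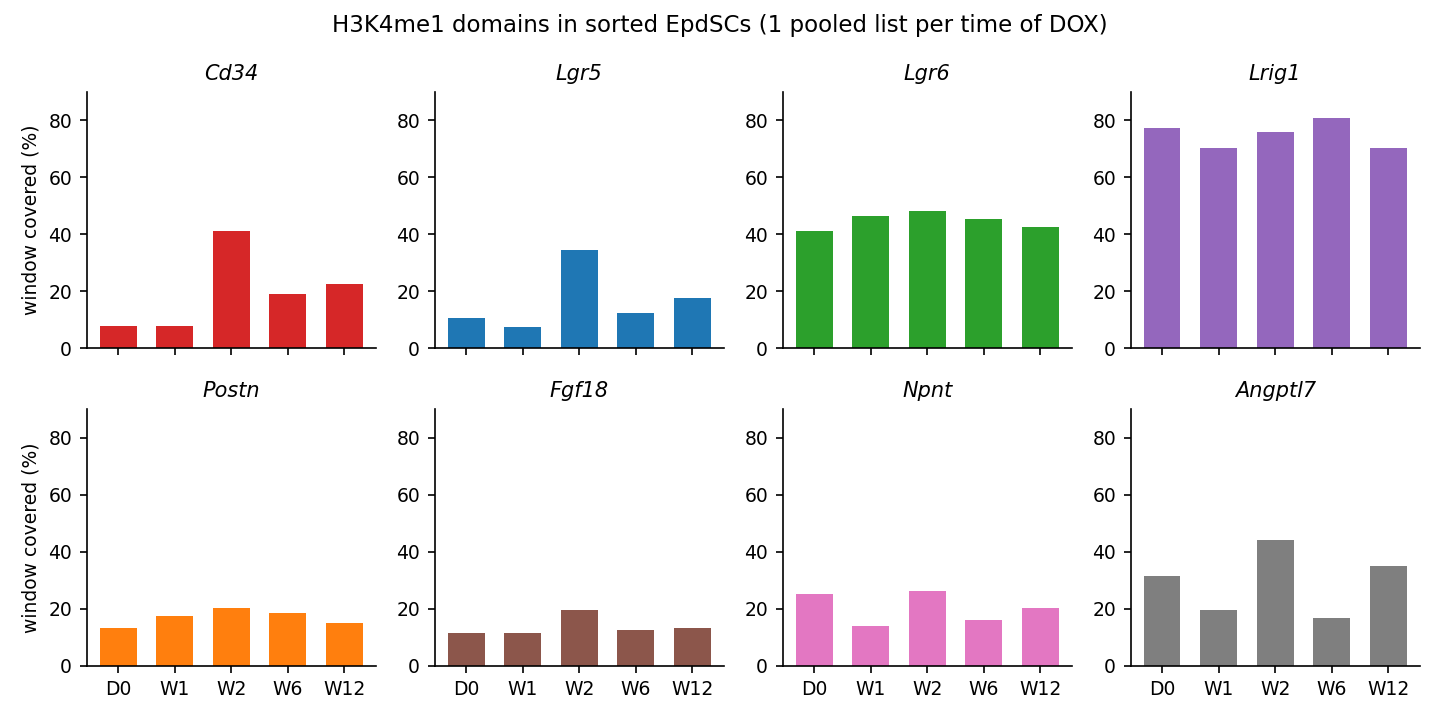
Percent of each member's window under H3K4me1 domains at D0, W1, W2, W6 and W12, 1 bar per pooled list and without error bars. W2 has the tallest bar for *Cd34* (41.3%) and *Lgr5* (34.4%), while *Lrig1* stays between 70.3% and 80.9%.

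**Figure D2:**
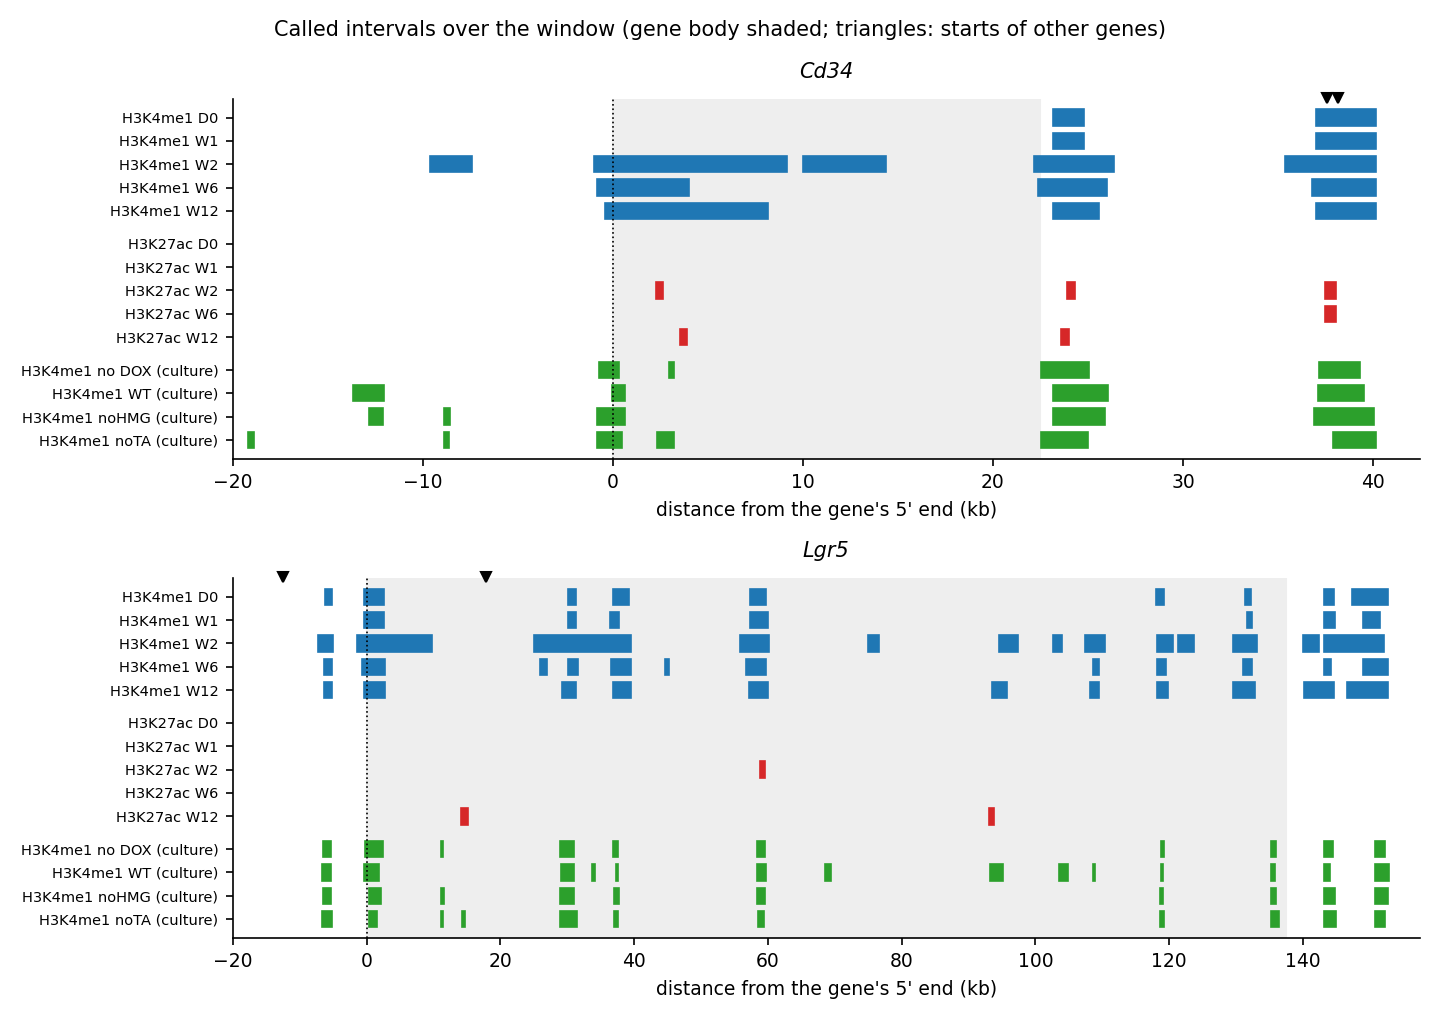
Called intervals in the *Cd34* and *Lgr5* windows, by distance in kb from the gene's 5′ end, with 1 row per list (blue, skin H3K4me1; red, skin H3K27ac; green, culture H3K4me1), the gene body shaded and starts of other genes as triangles. At D0 and W1 the *Cd34* start carries no skin domain, and at W2, W6 and W12 it does.

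*Lgr6* (chromosome 1, 134983301 to 135105276, minus strand) differed from *Lgr5* in its state before induction. H3K4me1 already covered 67.0 kb of the window at D0 and 75.4 kb, 78.0 kb, 73.8 kb and 69.2 kb at W1, W2, W6 and W12, which was within 1.16-fold of D0 throughout. Yet the window held no H3K27ac peak at D0 and 9, 3, 4 and 2 peaks at the later times, covering 5.37 kb, 2.13 kb, 1.65 kb and 0.912 kb. All of the *Lgr6* peaks lay in H3K4me1 domains, and all except the W1 peak 80.4 kb from the 5′ end in domains that D0 also had. At W1 peaks of folds 6.16 and 3.85 stood within 1 kb of the *Lgr6* start, and at no other time was a peak called there. The peak near 85.0 kb was called at W1 (fold 5.39, pileup 6) and W2 (fold 10.5, pileup 14), and one near 4.6 kb at W1 and W6. The W1 list, which had the most *Lgr6* peaks, also had the lowest background pileup, and its part in that count was not tested. *Lgr4*, the related R-spondin receptor, had H3K27ac over 5.36% of its window at D0 and 13.0%, 16.7%, 11.4% and 5.55% later. It was called higher at W1, W2 and W6, beside 22.0%, 25.8% and 31.1% of all windows.

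*Lrig1* (chromosome 6, 94604529 to 94700158, minus strand) was the most widely marked member in every skin list. H3K4me1 covered 105 kb, 95.6 kb, 103 kb, 110 kb and 95.4 kb from D0 to W12 and was called at no time. H3K27ac peaks numbered 24, 28, 28, 27 and 14, more than in the 7 other windows together in every list. They covered 21.7 kb at D0, then 33.9 kb (W1), 29.3 kb (W2), 26.0 kb (W6) and 8.11 kb (W12). W1 at 1.56 times D0 was called higher and W12 at 0.373 times was called lower. Every list had a peak reaching the *Lrig1* start, with folds of 10.7, 7.70, 9.82, 20.9 and 9.21 and pileups of 15, 9, 13, 34 and 12. These are values at the summit, which lay 3.49 kb from the 5′ end at W1 and 0.844 kb to 1.01 kb from it in the other lists. The W1 fold is therefore not one at the start itself. The start peak spanned 4519 bp, 4708 bp and 4116 bp at W1, W2 and W6 and 1143 bp at W12, while D0 had 2 peaks there of 1190 bp and 1211 bp. *Egfr*, whose receptor LRIG1 restrains, was called lower at W1, W6 and W12, beside 22.4%, 14.5% and 42.7% of all windows. Of its window 14.7% was acetylated at D0, 8.73%, 6.39% and 7.49% at those times, and 10.8% at W2.

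**Figure D3:**
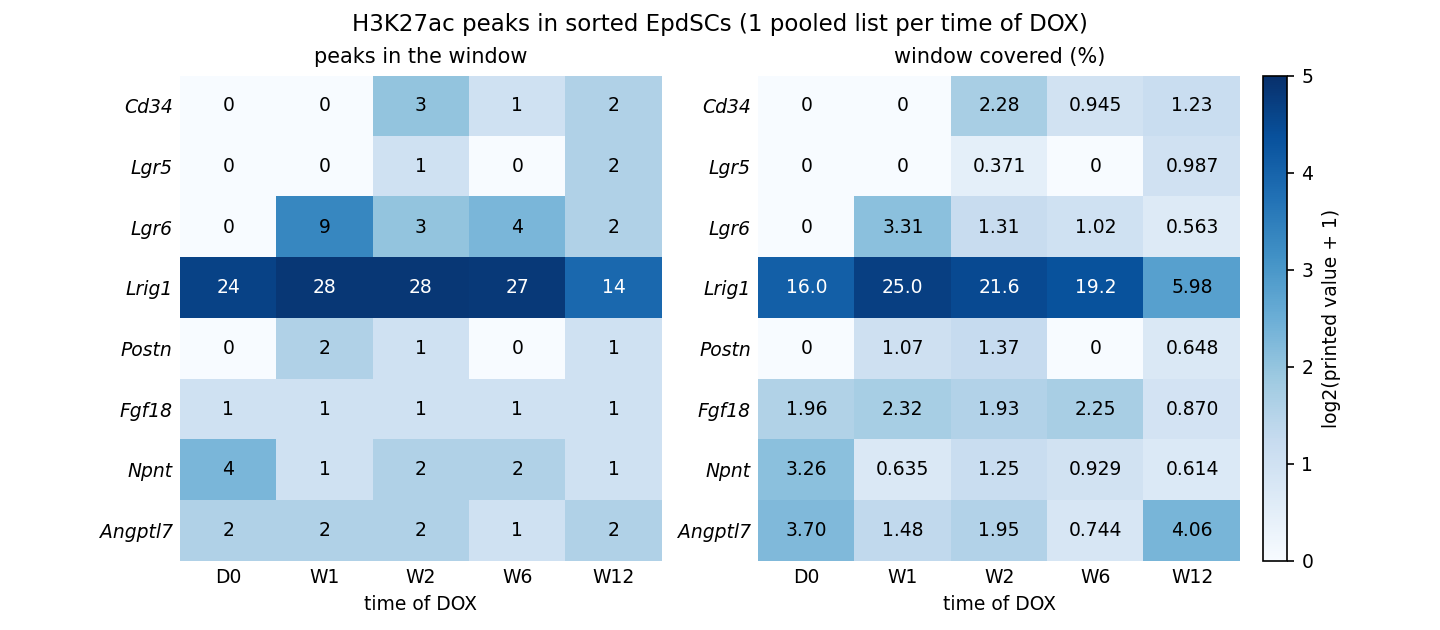
Number of H3K27ac peaks (left) and percent of the window they cover (right) for the 8 members at each time, 1 pooled list per cell, shaded by log2 of the printed value plus 1. *Cd34*, *Lgr5*, *Lgr6* and *Postn* read 0 at D0, and *Lrig1* reads 14 to 28 peaks.

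*Postn* (chromosome 3, 54361109 to 54391037, plus strand) gained mainly in a small stretch of its gene body. H3K4me1 covered 9.40 kb, 12.2 kb, 14.2 kb, 13.0 kb and 10.4 kb from D0 to W12. The domain over its start changed little (7000 bp to 9000 bp), whereas the domain near 10 kb measured 800 bp at D0 and 5000 bp, 5200 bp, 4800 bp and 3400 bp later. Of the 4.8 kb new at W2, 75.0% had already been covered at W1, and 79.2% were covered at W6 and 58.3% at W12. Across all windows 27.2% of the new W2 bases were covered at W1. H3K27ac peaks were called near there at W1 (9.24 kb from the 5′ end, fold 3.85), W2 (10 kb, fold 4.21) and W12 (9.82 kb, fold 6.38). The W2 peak overlapped each of the others, which did not overlap one another. W1 had 1 further peak 1.60 kb from the 5′ end, and D0 and W6 had none. The W2 ratio of 1.51 was only just past the limit for a call.

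*Postn* is also a gene of fibroblasts, which the gate was meant to remove. The 8 fibroblast genes *Pdgfra*, *Pdgfrb*, *Col1a1*, *Col1a2*, *Col3a1*, *Dcn*, *Lum* and *Vim* had H3K4me1 over 11% of their summed windows at D0 and 7.10% to 7.99% later. All 8 had 0 H3K27ac at D0, and 6, 7, 6 and 3 of them still had 0 at W1, W2, W6 and W12, with 0.120% to 0.499% of the summed windows covered. *Col1a1* was called higher in H3K27ac at all 4 times, with 0.549%, 2.73%, 1.42% and 1.76% of its window covered. At W12, when *Postn* was also called higher, 5 of the 8 were (*Pdgfra*, *Col1a1*, *Col1a2*, *Dcn* and *Vim*), beside 21.2% of all windows, while *Pdgfrb* and *Col3a1* were at 0 in every list. The part of fibroblasts in the *Postn* values was not tested. Of the 4 endothelial genes, which matter for *Cd34*, *Cdh5* had H3K4me1 over 0% of its window at D0 and W1 and 3.62%, 1.21% and 3.86% at W2, W6 and W12. *Kdr* read 2.1%, 3.04%, 9.11%, 2.1% and 5.37%, and *Tie1* 17.7%, 10.2%, 5.78%, 17.1% and 19.5%. With *Pecam1*, H3K4me1 covered 17.0% to 24.1% of the summed endothelial windows and H3K27ac 2.40% to 4.27%. *Pecam1* carried most of this H3K27ac, over 6.40% to 11.4% of its window, with a peak within 1 kb of its start at W6 and W12, whereas *Tie1* had some at D0 only (1.36%), *Cdh5* at W12 only (0.612%) and *Kdr* none. H3K4me1 at W2 was higher in 2 of these 4 genes (*Cdh5* and *Kdr*) and lower in 1 (*Tie1*), beside 10.6% and 22.4% of all windows. It was higher in *Cdh5* at W6 (9.04% of all windows) and in *Cdh5* and *Kdr* at W12 (9.23%), and *Cd34* was called higher at the same 3 times. The part of such cells in the *Cd34* values was not tested. H3K27ac covered 0.281% to 0.728% of the summed windows of 4 haematopoietic genes. *Csf1r* was at 0 in every list and *Ptprc* was higher at W6 and W12. *Cd3e* was lower at W2 and W12, and *Itgam* at W1, W2 and W12. Of 5 mast cell and melanocyte genes, 0.633% to 1.48% was covered, with *Tyr* at 0. *Mitf* was higher at W1, W2 and W6 and lower at W12. *Dct* was higher at W1 and W12, *Kit* higher at W12 and *Pmel* lower at W2. Of all windows, 22.0%, 25.8%, 31.1% and 21.2% were higher and 22.4%, 19.4%, 14.5% and 42.7% lower at W1, W2, W6 and W12.

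*Fgf18* (chromosome 11, 33117430 to 33147400, minus strand) had no H3K27ac apart from a neighbour's start. The 1 peak in its window in each list, with folds of 12.7, 8.47, 9.82, 18.5 and 9.92, sat at the start of *Npm1*, a nucleolar protein gene upstream. H3K4me1 covered 8 kb at D0 and W1, then 13.6 kb (W2), 8.80 kb (W6) and 9.40 kb (W12). The W2 excess came from domains of 2000 bp and 3000 bp past the 3′ end and 1400 bp in an intron that no other list had. Every list had a domain at the *Fgf18* start, and with domains at the *Npm1* start left out the W2 log2 ratio was 1.38 in place of 0.77.

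*Npnt* (chromosome 3, 132881745 to 132950291, minus strand) had fewer H3K27ac peaks at every later time than at D0. Its window had 4 H3K27ac peaks at D0 and 1, 2, 2 and 1 later, covering 3.54 kb at D0 and 0.689 kb, 1.35 kb, 1.01 kb and 0.667 kb at W1, W2, W6 and W12. It was called lower at all 4 times. The strongest D0 peak, in an intron 63.0 kb from the 5′ end, had fold 12.7 and pileup 18, and peaks overlapping it had folds of 3.85 at W1 and 5.96 at W6 and were absent at W2 and W12. The peak at its start was called at D0 (fold 4.66) and W2 (fold 5.61). H3K4me1 covered 27.1 kb, 15.3 kb, 28.5 kb, 17.4 kb and 21.8 kb, which was called lower at W1 and W6. *Itga8*, the integrin chain that binds nephronectin, had H3K4me1 over 0.765% of its window at D0 and 1.96%, 7.31%, 6.29% and 2.38% later.

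*Angptl7* (chromosome 4, 148495183 to 148500460, minus strand) lies inside *Mtor* on the opposite strand, and its window falls wholly within that gene. H3K4me1 covered 14.2 kb, 8.80 kb, 20 kb, 7.60 kb and 15.8 kb. A domain touched 1 kb around the *Angptl7* start at D0 (1600 bp wide) and W2 (10200 bp wide) and at no other time. H3K27ac covered 1.68 kb, 0.669 kb, 0.883 kb, 0.337 kb and 1.84 kb, called lower at W1, W2 and W6, and all of these peaks lay past the 3′ end of *Angptl7*, 8.53 kb to 12.6 kb from its 5′ end. Its W2 H3K4me1 ratio of 1.41 missed the limit for a call.

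Read together by call, H3K4me1 at W2 was higher in 4 of 8 windows (*Cd34*, *Lgr5*, *Postn* and *Fgf18*) and lower in 0, beside 10.6% and 22.4% of 18304 windows. At W1 it was higher in 0 and lower in 2 (*Npnt* and *Angptl7*), beside 3.51% and 21.8%. At W6 *Cd34* was higher and *Npnt* and *Angptl7* lower, beside 9.04% and 21.8%. At W12 *Cd34* and *Lgr5* were higher and 0 lower, beside 9.23% and 23.8%. The median log2 ratio of the 8 members against D0 was -0.07 (W1), 0.54 (W2), 0.14 (W6) and 0.15 (W12), and over all windows covered in both lists -0.23, -0.15, -0.18 and -0.21.

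**Figure D4:**
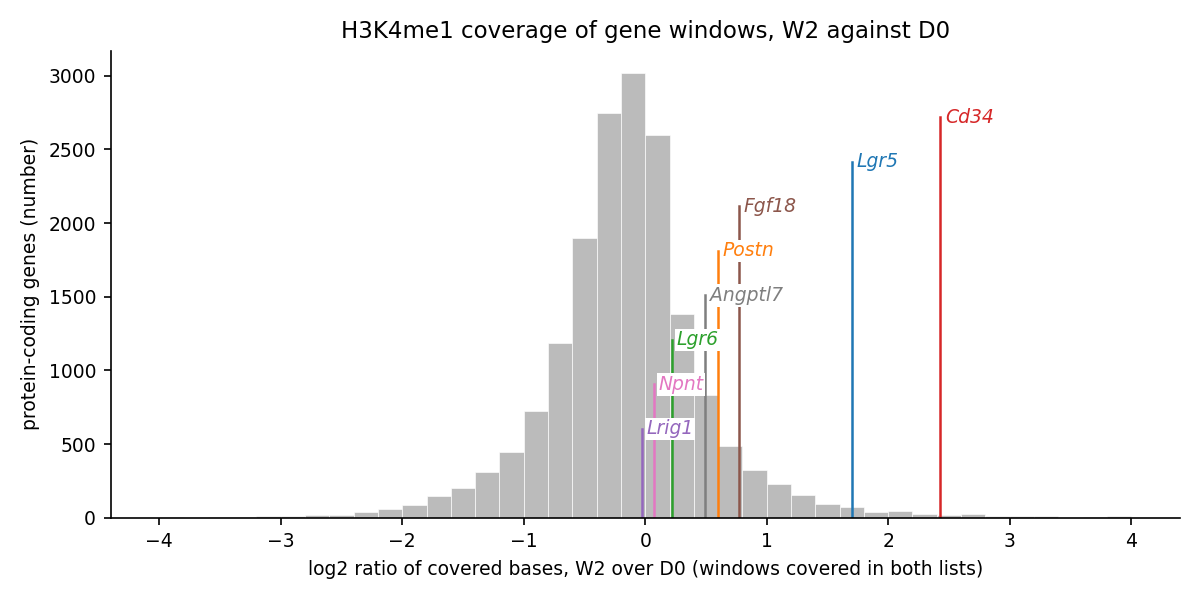
Log2 ratio of H3K4me1-covered bases at W2 over D0 for the 17328 protein-coding windows covered in both lists (grey bars, number of genes), with the 8 members as coloured lines whose heights only separate the names and with ratios beyond the ends counted in the end bins. *Cd34* (2.43) and *Lgr5* (1.70) lie in the right tail, and *Lrig1* (-0.03) and *Npnt* (0.07) near the centre.

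H3K27ac was called higher at W1 in *Lgr6*, *Lrig1* and *Postn* and lower in *Npnt* and *Angptl7*, beside 22.0% and 22.4% of all windows with a peak. At W2 it was higher in *Cd34*, *Lgr5*, *Lgr6* and *Postn* and lower in *Npnt* and *Angptl7* (background 25.8% and 19.4%). At W6 it was higher in *Cd34* and *Lgr6* and lower in *Npnt* and *Angptl7* (background 31.1% and 14.5%). At W12 it was higher in *Cd34*, *Lgr5*, *Lgr6* and *Postn* and lower in *Lrig1*, *Fgf18* and *Npnt* (background 21.2% and 42.7%), and the *Fgf18* value is that of the *Npm1* start. All of these higher calls except *Lrig1* at W1 were against 0 at D0, so that no ratio can be given. The fewer covered bases at W12 were general, with a median log2 ratio of -0.44 over all windows. W12 peaks were also narrower, with a median width of 476 bp against 635 bp to 821 bp in the other lists. The part of peak calling in this was not tested.

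H3K27ac peaks were also compared one by one. Of the peaks in the 8 windows, 23 of 43 (W1), 20 of 41 (W2), 14 of 36 (W6) and 13 of 25 (W12) overlapped no D0 peak, beside 41.3%, 40.1%, 39.8% and 56.2% of all peaks. Of the 31 D0 peaks, 8, 9, 10 and 20 were lost at these times, beside 37.4%, 38.6%, 37.8% and 53.7%. *Lrig1* alone held 24 of the 31, and without it the 7 other windows gained 12 of 15, 8 of 13, 5 of 9 and 8 of 11 peaks and lost 4, 2, 3 and 4 of 7. Most of these gains lay in the 4 windows without a D0 peak, where every later peak counts as gained. Of the gained peaks, 22 of 23 (W1), 19 of 20 (W2), 12 of 14 (W6) and 10 of 13 (W12) overlapped a D0 H3K4me1 domain. Of all gained peaks, 91.0%, 89.3%, 90.9% and 56.8% did, so that the members were close to the general share at W1, W2 and W6. *Lrig1*, with 77.5% of its window under H3K4me1 at D0, held 11, 12, 9 and 5 of the members' gained peaks.

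In culture the windows were marked differently, by intervals with a median width of 833 bp to 930 bp against 2400 bp to 2800 bp in skin, so that levels were not compared between skin and culture. *Postn* covered 0.976 kb without DOX, 3.78 kb with WT, 2.71 kb with noHMG and 3.12 kb with noTA. It was the only member called higher with all 3 variants. *Lgr6* covered 6.14 kb without DOX, 11.9 kb with WT, 8.36 kb with noHMG and 13.7 kb with noTA, and was called with WT and noTA. Its ratio with noHMG, 1.36, missed the limit. *Fgf18* was called with noTA (6.74 kb against 10.4 kb), and *Angptl7* was lower with noHMG (6.45 kb against 3.67 kb).

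*Cd34* and *Lgr5*, the members of the largest H3K4me1 ratios in skin at W2, were called with none of the variants. *Cd34* covered 6.06 kb without DOX, 7.62 kb with WT, 8.44 kb with noHMG and 7.47 kb with noTA. Its start site, bare in skin at D0 and W1, carried an interval in all 4 culture lists. *Lgr5* covered 12.4 kb without DOX, 15.7 kb with WT, 12.4 kb with noHMG and 12.5 kb with noTA. *Lrig1* covered 31.5 kb without DOX and 28.2 kb to 28.8 kb with the variants, and *Npnt* 6.05 kb and 6.51 kb to 7.37 kb. In all, 2 members were higher and 0 lower with WT (background 18.7% and 10.7%), 1 higher and 1 lower with noHMG (10.9% and 7.24%), and 3 higher and 0 lower with noTA (18.0% and 6.84%). Of the bases new in skin at W2, the WT culture list covered 22.9% in *Lgr6*, 9.43% in *Cd34* and 7.50% in *Lgr5*, and the list without DOX 5.34%, 10.8% and 3.60%. Over all windows these shares were 15.2% and 9.02%.

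**Figure D5:**
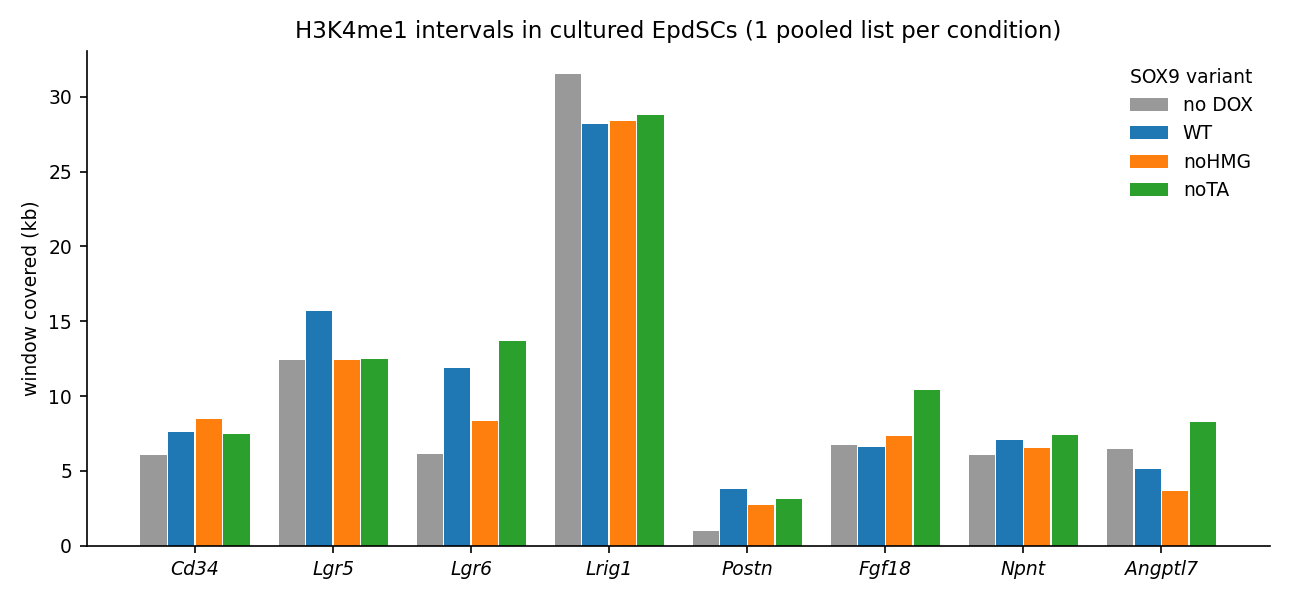
Kilobases of each member's window under H3K4me1 intervals in cultured EpdSCs without DOX and with WT, noHMG and noTA SOX9, 1 bar per pooled list and without error bars. *Postn* is higher with each variant than without DOX (0.976 kb). The *Lrig1* bars with each variant are slightly below the one without DOX (31.5 kb), short of a call.

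Among 11 other genes of follicle stem cells, H3K4me1 at W2 was higher in *Cd200*, *Tnc* and *Sfrp1* and lower in 0 (background 10.6% and 22.4%). *Cd200*, a bulge surface protein, read 13.7% of its window at D0, 16.4% (W1), 43.3% (W2), 29.9% (W6) and 43.0% (W12). *Sfrp1*, a secreted WNT inhibitor, read 49.2%, 48.7%, 80.4%, 45.6% and 49.7%. H3K27ac at W2 was higher in 6 of the 11 (*Cd200*, *Dkk3*, *Gas1*, *Tnc*, *Sfrp1* and *Gli1*) and lower in 0 (background 25.8% and 19.4%). At W12 it was higher in 3 and lower in 4 (background 21.2% and 42.7%). *Krt15*, a keratin of the bulge and of basal epidermis, was lower at W6 and W12, with 9.67% of its window acetylated at D0 and 0.620% and 0% then. A peak within 1 kb of the *Krt15* start was still called at W6, as at D0, W1 and W2, and not at W12. Of 11 partners of LGR and LRIG proteins and of nephronectin, H3K4me1 at W2 was higher in *Itga8* alone (background 10.6%). It was lower in *Rspo2*, *Rspo3*, *Rspo4* and *Lrig2* (background 22.4%). H3K27ac was higher in 4, 2, 2 and 3 of these 11 at W1, W2, W6 and W12 (background 22.0%, 25.8%, 31.1% and 21.2%). It was lower in 2, 0, 1 and 3 (background 22.4%, 19.4%, 14.5% and 42.7%). The R-spondin genes, ligands of the LGR receptors, had little H3K4me1 outside *Rspo1* (11.8% to 17.6%), with at most 4.54% of a window, and of the 4 only *Rspo2* at W1 and *Rspo1*, *Rspo3* and *Rspo4* at W12 had an H3K27ac peak.

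For each member, the protein-coding gene on another chromosome whose 10 skin values (percent of the window covered, 5 times and both marks) came closest was found by the summed absolute difference. For *Cd34* it was *Smad6* (17.68 points), with H3K4me1 over 15.0%, 9.54%, 37.1%, 18.7% and 23.9% of its window. For *Lgr5* it was *Fam198b* (9.47 points), with 12%, 10.6%, 31.8%, 13.0% and 17.5%. The others were *Ppfibp1* for *Lgr6*, *Dpm3* for *Lrig1*, *Wipf1* for *Postn*, *Mbd1* for *Fgf18*, *Fam118a* for *Npnt* and *Rassf3* for *Angptl7*, at 5.18 to 23.84 points.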

How the data were processed

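MINT-ChIP lists of H3K4me1 and H3K27ac in sorted EpdSCs at 5 times and of H3K4me1 in cultured EpdSCs were used, 14 lists in all. Groups, times and digests came from the sample labels, and which culture list is which was read from the list names. The authors split reads by barcode, trimmed them with Skewer, aligned them to mm10 with Bowtie2 (2.2.9), removed duplicates with Picard, merged replicates with SAMtools (1.9) and, per the labels, pooled both nuclease digests, and called H3K27ac peaks with MACS2 (2.1.1). For H3K4me1 the methods name epic2 and the submitters' processing notes SICER (0.0.36). Culture lists have the layout of MACS2 broad peaks, so that their caller is unclear. Caller settings are not given in the sources used here. The name of the W12 H3K27ac list carries a tag that the other H3K27ac lists lack. Whether it was called with the same settings is therefore not known. Total H3 and 14 barcode files were not used.

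The deposited skin H3K4me1 domains each have a p-value, at most 0.0458 to 0.0496 in a list. The deposited H3K27ac and culture intervals each have a score in whole numbers, a fold (ratio) over local background and a −log10 p. None of these tests compares conditions, and no test was possible between pooled lists.

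Intervals on 21 chromosomes overlapping a window (gene body and 20 kb flanks) by at least 1 bp were counted, and covered bases were summed within the window with Python (3.11.15) and numpy (2.4.6). Genes and start sites came from GENCODE M21 basic, and sequences from RefSeq's GRCm38.p6. The sequence of 300 bases was read for 7 members with a suitable gained peak, and the 4 without a D0 peak are printed. Pileups were recovered from H3K27ac folds, which equal the pileup plus 1 over the background plus 1 in 82.3% to 96.0% of a list's peaks. Interval functions were tested on simulated data.

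The members and gene lists were chosen with earlier results of these data known. Named genes were the members, genes starting in their windows, 1 most alike gene per member, and fixed lists of follicle stem cell, LGR and LRIG partner, sort and cell type genes.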

Additional observations from a re-analysis of the deposited data

Results flagged for a closer look

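*Lrig1* H3K27ac was called in opposite directions under the same control. Its log2 ratio of covered bases to D0 was 0.64 at W1 and -1.42 at W12, and the difference between these times was not tested, since each is 1 pooled list. The W12 list as a whole covered less than D0, with a median log2 ratio of -0.44 over all windows, and the W1 list had a median of -0.02. The W1 ratio of 1.56 is close to the limit of 1.5 for a call and is not called at 2-fold.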

How the results depend on the processing

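No paired analysis was possible because the authors merged the replicates, and none could be left out. The higher H3K4me1 calls of *Cd34* and *Lgr5* rest on single pooled lists, as does every other value, and the part of depth in which weak H3K27ac peaks were called was not tested. With intervals above the median of their list, 8 counts of peaks gained or lost moved: gained peaks were 7, 5, 4 and 8 and lost peaks 4, 3, 5 and 7 at W1, W2, W6 and W12. Members lower became 1 for H3K4me1 at W12, 1 for H3K27ac at W1, 1 at W2 and 1 at W6, and 1 for WT culture, members higher became 0 for H3K27ac at W6 and 6 for noTA culture, and the *Angptl7* log2 ratio with noHMG reversed to 0.08. With 50 kb flanks, H3K4me1 gave 1 lower at W1, 2 higher and 1 lower at W6, H3K27ac 1 lower at W2 and 1 at W6, and culture 4 higher with WT and 2 higher and 0 lower with noHMG. With 10 kb flanks, 1 member was lower in H3K4me1 at W1 and 1 at W6, and 1 higher in H3K27ac at W6. A 2-fold call left 0 lower at W1, 2 higher at W2, 0 lower at W6 and 1 higher at W12 for H3K4me1, 2 higher at W1 (without *Lrig1*) and 1 lower at W2 for H3K27ac, and 1 higher with WT, 0 lower with noHMG and 2 higher with noTA (without *Fgf18*) in culture. Scaling by total covered bases gave H3K4me1 calls of 1 higher and 1 lower at W1 and 2 higher and 1 lower at W6, and lists of equal length gave 1 lower at W1. Leaving out intervals at starts of other genes of any type, chosen after seeing the data, left 1 higher in H3K27ac at W6, and leaving out those at coding genes moved 0 of 22 counts. An overlap of 50% moved 0 of 8 counts of peaks. The causes of these shifts were not tested.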
